A study of Mus musculus with 12 samples.

Results

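Smooth muscle contractile genes were followed across ileal mucosal scrapings of POR-null and wild-type mice, as a measure of the muscle carried over in each scraping. The genes were Actg2, Acta2, Myh11, Myl9, Mylk, Cnn1, Tagln and Des. Every probe set annotated to exactly 1 of these 8 symbols was taken, which gave 13 of 22626 probe sets and 8 of 12393 genes. The 4 groups were POR-null mice on quercetin, POR-null mice on the control diet, wild-type mice on quercetin and wild-type mice on the control diet, with 3 arrays each. All mice were C57BL/6 males aged 6 to 8 weeks. By their label, POR-null mice carry a deletion of cytochrome P450 reductase, which passes electrons to microsomal P450 enzymes. All groups ate a soya-free powdered diet for 14 days, and the quercetin groups then received it with 6.2 g of the flavonol quercetin per kg (7 mg per mouse) for 24 h. Each array held RNA pooled from 3 mice, with other mice in each pool, and the epithelial layer had been scraped off the rinsed ileum. No label states where in the body the deletion acts, so its loss in the ileum itself is not known here. Por itself is not analysed here, and its level gave no test of the genotype labels. The p-values measure the spread between these pools.

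Smooth muscle contracts when calcium and calmodulin activate a kinase that phosphorylates the regulatory light chain of myosin, which then pulls on actin filaments. In the ileal wall these cells form the outer muscle layers, the thin muscularis mucosae under the mucosa and the walls of blood vessels, and strands run into the villi. Their contractile genes are driven by serum response factor with its partner myocardin through a DNA element called the CArG box. Epithelial cells use other actins and myosins, so RNA of the smooth muscle forms in a scraping of epithelium comes mainly from cells beneath it. In pooled tissue RNA, fewer muscle cells and less RNA per muscle cell cannot be told apart.

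CArG boxes were looked for in the bases before the transcription start because the 8 genes moved together across arrays. A window was at hand for Acta2, Cnn1, Des, Myl9 and Mylk, and for none of Actg2, Myh11 or Tagln (RefSeq, GRCm38.p6; 250 bases before the start; the box is its own reverse complement, so both strands were read at once). An exact CArG box stood in 1 of these 5 windows, that of Myl9, and in 1.47% of the 32851 windows of the table. On the list of 43 other smooth muscle genes, 38 had a window, and 6 of their 55 windows held an exact box, those of Dmd, Fhl1, Ldb3, Srf and Vcl. Allowing 1 mismatch, Myl9 and Acta2 had matches, as did 17.5% of all windows. The Myl9 stretch below ends just before the first annotated base of the gene and lies at chr2:156775214-156775407 on the plus strand. The capitals mark the exact box, CCTAATAAGG, and a match with 1 mismatch, CCTTGTAAGG. They begin 161 and 99 bases before the transcript start on which the Myl9 window was built. That window runs to 156775463, past the first annotated base of the gene at 156775408. Both matches therefore lie nearer to the gene's first base than these distances. The 2 Acta2 stretches, with 1 mismatch each, lie at chr19:34255438-34255467 and chr19:34255388-34255417 on the minus strand, and their matches begin 84 and 34 bases before the transcript start on which the window was built. That start lies inside the annotated gene, which runs to 34255585, so both stretches are within the gene. The Mylk window lies wholly inside its gene too, at chr16:34784700-34784949. The Cnn1 window runs to 22099252, past the first annotated base of its gene at 22099221.
Myl9: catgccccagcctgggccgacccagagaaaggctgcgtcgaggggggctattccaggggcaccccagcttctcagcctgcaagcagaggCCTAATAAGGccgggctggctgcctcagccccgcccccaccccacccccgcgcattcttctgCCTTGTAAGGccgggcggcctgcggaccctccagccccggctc
Acta2, farther from the start: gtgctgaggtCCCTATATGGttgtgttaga
Acta2, nearer to the start: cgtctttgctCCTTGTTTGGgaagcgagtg
A match is a run of letters, and no binding was measured here.

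Across the scrapings the contractile genes varied together, and in some groups the arrays differed by more than the group means did. In POR-null control and in wild-type quercetin the 3 arrays spanned more than the 4 group means for all 8 genes, in POR-null quercetin for Acta2 alone, and in wild-type control for none. Myl9 spanned 3.63 on the log2 scale over the 12 arrays, a 12.4-fold range, and Actg2 spanned 3.20, a 9.19-fold range. On average the POR-null scrapings were higher for all 8 genes, by 0.29 to 1.46 on the log2 scale, while the diet differences averaged between -0.08 and 0.14. No gene passed the test in any comparison. Values below are log2 expression levels of the probe set with the highest mean for each gene, and a difference of 1 is a 2-fold change.

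The actins come first. Actg2, on chromosome 6 (83512909 to 83536251 in GRCm38.p6), encodes the gamma actin that is the main actin of enteric smooth muscle. Its level was 6.41, 7.16 and 5.93 on the POR-null quercetin arrays and 7.76, 4.76 and 7.11 on the POR-null control arrays, against 4.81, 6.58 and 4.56 on wild-type quercetin and 4.62, 5.33 and 5.58 on wild-type control. The POR-null control group held the highest of the 12 arrays, replicate 1, and also an array, replicate 2, at the level of the low wild-type ones, so the groups overlapped. Averaged over both diets the POR-null arrays were higher by 1.28 ± 0.46 (SE), with a 95% interval from 0.28 to 2.27 (limma, unadjusted p = 0.0159, adjusted p = 0.568).

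Acta2 lies on chromosome 19 (34240336 to 34255585) and encodes the alpha actin of vascular smooth muscle and of myofibroblasts. It was measured at 8.61, 9.16 and 8.18 on POR-null quercetin and 9.36, 7.59 and 8.85 on POR-null control, against 7.52, 8.76 and 7.20 on wild-type quercetin and 7.40, 8.05 and 7.92 on wild-type control. The same arrays stood high and low as for Actg2, and wild-type quercetin replicate 2 stood with the POR-null arrays. The average genotype difference was 0.82 ± 0.31 (limma, adjusted p = 0.599). The name of this probe set ends in _s_at, which the manufacturer gives to sets whose probes can match more than 1 transcript, so RNA of another actin gene in its value cannot be told apart.

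Among the myosins, Myh11 (chromosome 16, 14194527 to 14292188) encodes the heavy chain of smooth muscle myosin. It read 6.09, 6.78 and 6.23 on POR-null quercetin, 7.38, 5.44 and 6.62 on POR-null control, 5.28, 6.59 and 5.09 on wild-type quercetin and 4.96, 5.88 and 5.58 on wild-type control. Replicate 2 of POR-null control again lay below 2 of the 3 wild-type control arrays. The difference between genotypes averaged 0.86 ± 0.31 (limma, adjusted p = 0.571).

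Myl9, on chromosome 2 (156775408 to 156781657), encodes the regulatory light chain that the kinase phosphorylates. Levels were 7.03, 7.79 and 6.94 on POR-null quercetin and 8.43, 5.64 and 7.64 on POR-null control, against 5.45, 7.15 and 5.14 on wild-type quercetin and 4.80, 6.05 and 6.12 on wild-type control. The 3 POR-null quercetin arrays lay close together, around wild-type quercetin replicate 2. Its average genotype difference of 1.46 ± 0.45, or 2.75-fold, was the largest of the 8 (95% interval 0.50 to 2.42; limma, unadjusted p = 0.00568, adjusted p = 0.483).

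Mylk (chromosome 16, 34745199 to 35002436) encodes the myosin light chain kinase. A long form of this kinase is also made outside smooth muscle, in epithelium among other tissues. On the arrays Mylk stood at 9.92, 9.99 and 9.78 in POR-null quercetin and 10.33, 9.63 and 10.21 in POR-null control, against 9.44, 9.89 and 9.74 in wild-type quercetin and 9.52, 9.78 and 9.78 in wild-type control. Its span was smaller, at 0.89, and its order differed in part: wild-type quercetin replicate 3, the lowest array for 5 of the other genes, lay above 3 arrays for Mylk. POR-null arrays averaged 0.29 ± 0.11 more (limma, adjusted p = 0.634).

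Calponin 1 and transgelin bind actin filaments. Cnn1 (chromosome 9, 22099221 to 22109221) read 6.53, 6.83 and 6.13 on POR-null quercetin, 7.40, 5.37 and 6.69 on POR-null control, 5.37, 6.41 and 5.28 on wild-type quercetin and 5.35, 5.99 and 5.92 on wild-type control. Tagln, also on chromosome 9 (45929628 to 45936058), read 7.40, 7.58 and 6.94, then 7.85, 6.05 and 7.55, against 6.01, 7.09 and 5.54 and 5.61, 6.49 and 6.41 in the same order of groups. For both, the SD between arrays was widest in POR-null control, at 1.03 for Cnn1 and 0.96 for Tagln, against 0.63 and 0.79 in wild-type quercetin and 0.35 and 0.49 in wild-type control. The average genotype differences were 0.77 ± 0.29 for Cnn1 and 1.04 ± 0.31 for Tagln (limma, adjusted p = 0.608 and 0.456).

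Des (chromosome 1, 75360292 to 75368579) encodes desmin, the intermediate filament protein that links the contractile units of muscle cells. Its values were 7.35, 7.41 and 7.03 on POR-null quercetin and 7.18, 6.68 and 7.28 on POR-null control, against 6.83, 7.16 and 6.56 on wild-type quercetin and 6.68, 6.95 and 6.88 on wild-type control. Des was the exception among the 8 in having its highest value on POR-null quercetin replicate 2, and its span was the narrowest, at 0.85. The genotype difference averaged 0.31 ± 0.12 (limma, adjusted p = 0.620).

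**Figure D1:**
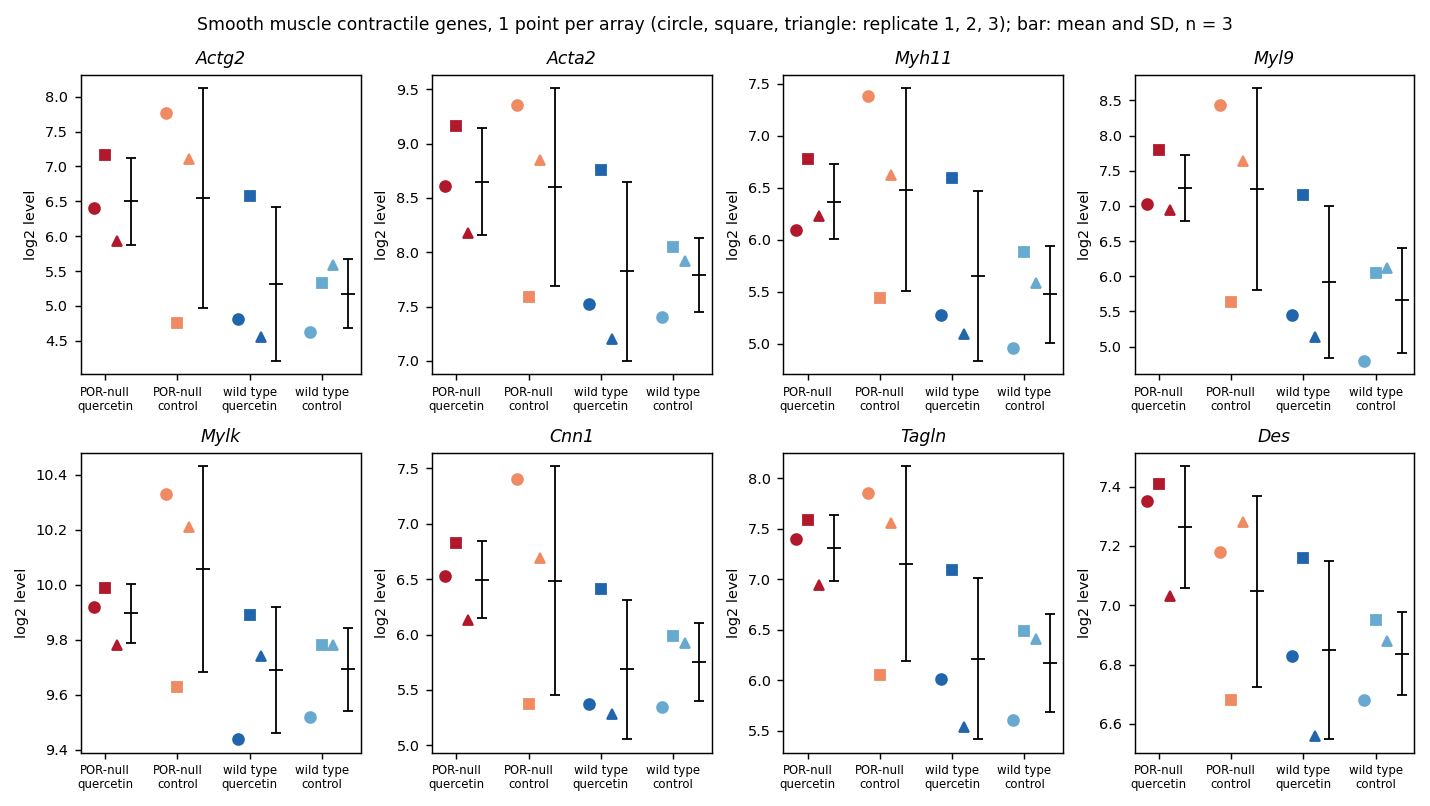
Log2 level (y axis) of the 8 contractile genes on each of 12 arrays by group (x axis), with a circle, square or triangle for replicate 1, 2 or 3 and a bar for the mean and SD (n = 3). Replicate 2 of POR-null control lies low and replicate 2 of wild-type quercetin lies high in every panel relative to the rest of its group.

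A score was computed for each array as the mean over the 8 genes of the log2 level minus that gene's mean over the 12 arrays. The score was 0.39, 0.81 and 0.11 on the POR-null quercetin arrays and 1.18, -0.64 and 0.71 on POR-null control, against -0.69, 0.42 and -0.89 on wild-type quercetin and -0.91, -0.22 and -0.26 on wild-type control. Group means were 0.43 ± 0.35, 0.42 ± 0.94, -0.39 ± 0.71 and -0.46 ± 0.39 in that order (SD, n = 3). Neighbouring means in this order differed by less than the SD of at least 1 of the pair. Within a diet, the POR-null and wild-type means on quercetin, 0.43 and -0.39, lay further apart than either SD. On control, 0.42 and -0.46 lay closer together than the POR-null SD of 0.94. The scores of POR-null and wild-type arrays overlapped on each diet. POR-null quercetin scores ran from 0.11 to 0.81 and wild-type control scores from -0.91 to -0.22, a pair of groups that differ in genotype and diet. The share of all probe sets without overlap between these groups was not computed, so nothing is drawn from this pair. POR-null control replicate 1 was the highest array for 7 of the 8 genes and POR-null quercetin replicate 2 for Des, while the lowest array was wild-type quercetin replicate 3 for 5 genes, wild-type control replicate 1 for 2 and wild-type quercetin replicate 1 for 1.

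The genes shared much of this order. Over the 28 pairs of genes, Pearson's r across the 12 arrays lay between 0.72 and 0.99 with a median of 0.96, and Spearman's rho between 0.86 and 0.998 with a median of 0.97. After the group means were subtracted, r still lay between 0.76 and 0.99 (median 0.95), and without the 2 arrays farthest from the median score it lay between 0.73 and 0.99. These correlations are descriptions without a p, since the genes were chosen as one group and share the arrays. The shared order was thus also present among pools of the same genotype and diet.

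**Figure D2:**
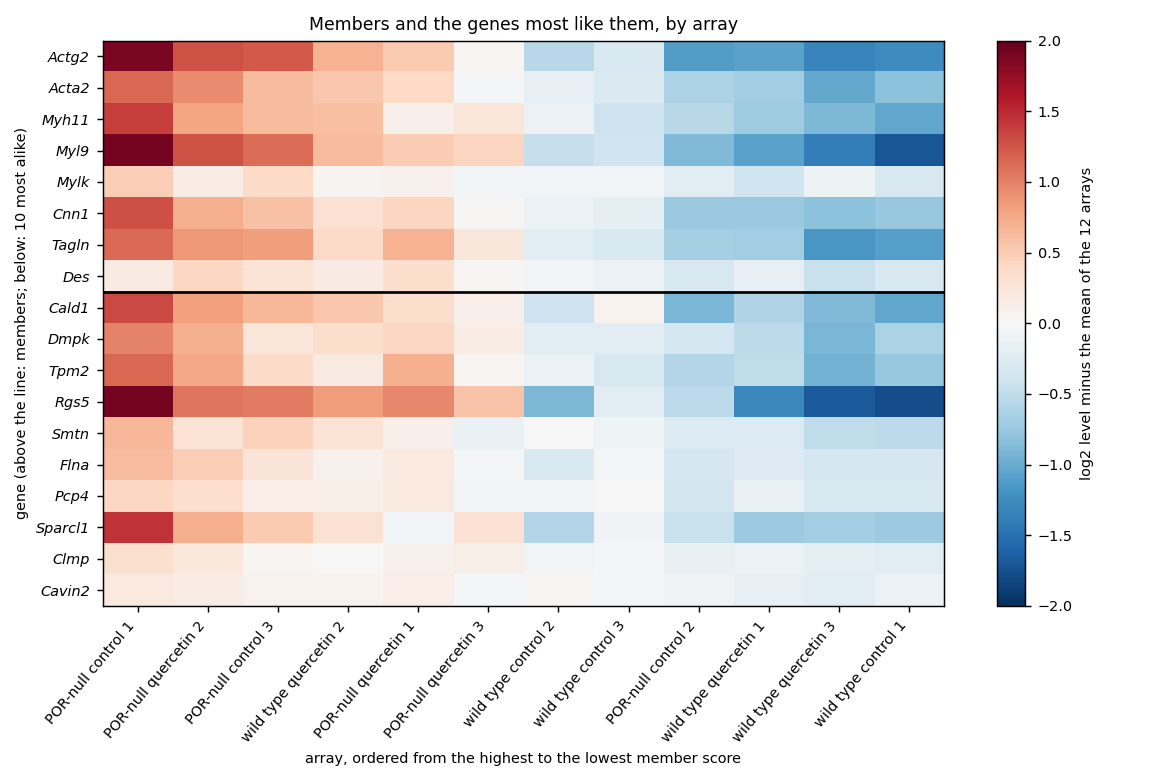
Log2 level minus the mean of the 12 arrays (colour) for the 8 contractile genes (rows above the line) and the 10 genes most like them (rows below), with arrays (columns) ordered by score from 1.18 to -0.91. Colours run from red to blue in a similar order in most rows, and POR-null control replicate 2 stands among the wild-type arrays.

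The spread within groups set the highest probe sets of these genes apart in size. The median residual SD of all probe sets was 0.109 on the log2 scale. Actg2 had a residual SD of 1.04 and Myl9 of 1.00, which were 9.55 and 9.18 times that median, and only 8 and 10 probe sets of 22626 had a larger one. Myh11 (0.70), Tagln (0.69), Acta2 (0.68) and Cnn1 (0.65) each exceeded 99.8% of all probe sets. Des and Mylk, at 0.25 and 0.24, exceeded 96.6% and 95.8%. Among the other probe sets of these genes, both of Mylk (0.25 and 0.21) exceeded 96.2% and 93.6%. Those of Des, Acta2 and Myh11 (0.125, 0.101 and 0.088) exceeded only 64.0%, 41.7% and 28.0%.

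**Figure D3:**
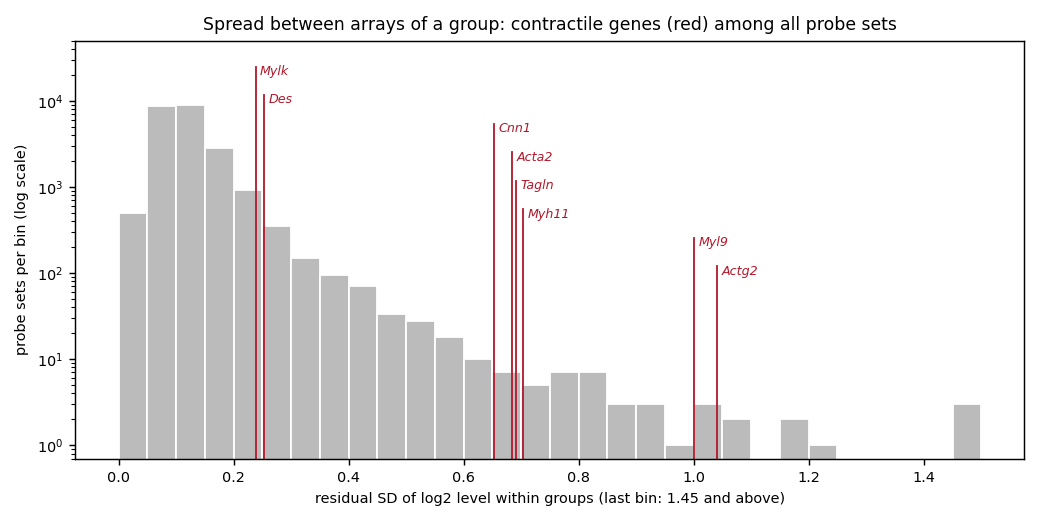
Number of probe sets (y axis, log scale) by residual SD of the log2 level between arrays of a group (x axis), with the 8 contractile genes as red lines. Actg2 and Myl9, near 1, lie far to the right of the bulk of probe sets around the median of 0.109.

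The comparison of genotypes asked how POR-null scrapings differed from wild type. On the quercetin diet all 8 genes were higher in POR-null, by 0.21 to 1.34 with a median of 0.82, where 54.9% of all probe sets had a difference above 0 and the median over all was 0.01. On the control diet all 8 were higher again, by 0.21 to 1.58 with a median of 0.90, where 43.4% of probe sets were above 0 and the median over all was -0.02. By limma 0 of 8 passed at an adjusted p of 0.05 on either diet, as did 0% of all probe sets. At an unadjusted p under 0.05 there were 2 genes on quercetin (Tagln and Des, against 3.87% of probe sets called higher) and 4 on control (Myl9, Myh11, Tagln and Mylk, against 4.53%). By these probe sets the groups of arrays overlapped for each of the 8 genes on both diets, while 7.28% and 5.15% of all probe sets had every POR-null array above every wild-type one on quercetin and on control.

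Averaged over the diets, 0 of 8 genes passed limma's adjusted test (0% of probe sets did) and 8 of 8 had an unadjusted p under 0.05 with POR-null higher, where 3.72% of probe sets were called so. With the trend and robust options of eBayes, 4 of 8 had an unadjusted p under 0.05. The 8 genes rose and fell together, so their counts repeat one pattern over the same 12 arrays. They were also chosen with earlier results of these data known, so the counts are no test of the list. On this average the lowest adjusted p was 0.456, for Tagln. The control-diet median of 0.90 fell to 0.49 without POR-null control replicate 1 and was 1.42 without POR-null control replicate 2. On quercetin the median was 0.56 without wild-type quercetin replicate 3, 0.61 without POR-null quercetin replicate 2 and 1.24 without wild-type quercetin replicate 2. The counts at an unadjusted p under 0.05 moved further. On control the 4 genes became 0 without POR-null control replicate 1, POR-null control replicate 3 or wild-type control replicate 1, and 8 without POR-null control replicate 2. On quercetin the 2 became 0 without POR-null quercetin replicate 1 or 2 or wild-type quercetin replicate 1 or 3, and 4, 6 and 7 without POR-null control replicate 1, POR-null control replicate 2 and wild-type quercetin replicate 2. Averaged over the diets the 8 became 5 when replicate 2 of POR-null quercetin was left out, and likewise for replicate 1 of POR-null control.

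The comparison of diets asked whether quercetin went with a change in these genes. In POR-null mice 5 of 8 were higher on quercetin and 3 lower, with differences from -0.16 (Mylk) to 0.22 (Des) and a median of 0.01, the same as over all probe sets, of which 54.5% were higher. In wild-type mice 6 were higher and 2 lower, from -0.07 (Cnn1) to 0.26 (Myl9), with a median of 0.04 against -0.02 over all and 41.8% of probe sets higher. By limma 0 of 8 passed the adjusted test in each genotype, as did 0% of all probe sets in POR-null and 0.00442% in wild type. At an unadjusted p under 0.05 there were again 0 of 8, where 3.64% of probe sets were called higher and 3.01% lower in POR-null and 5.32% higher and 5.59% lower in wild type. The intervals were wide: the average quercetin difference of Myl9 was 0.14 with a 95% interval from -0.82 to 1.09, and that of Des 0.12 with one from -0.14 to 0.37. The quercetin effect in POR-null minus that in wild type lay between -0.29 (Myh11) and 0.20 (Des), and 0 of 8 passed limma's adjusted test of this difference (0% of probe sets did) or had an unadjusted p under 0.05, where 6.07% of probe sets were called higher and 4.24% lower.

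The directions of most quercetin differences depended on single arrays. Without POR-null control replicate 2, the lowest of its group, the median quercetin difference in POR-null was -0.50, and without replicate 1, the highest, it was 0.45. In wild type it was -0.38 without quercetin replicate 2 and 0.365 without quercetin replicate 3. Under the leave-one-out fits no gene changed the direction of its genotype difference.

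**Figure D4:**
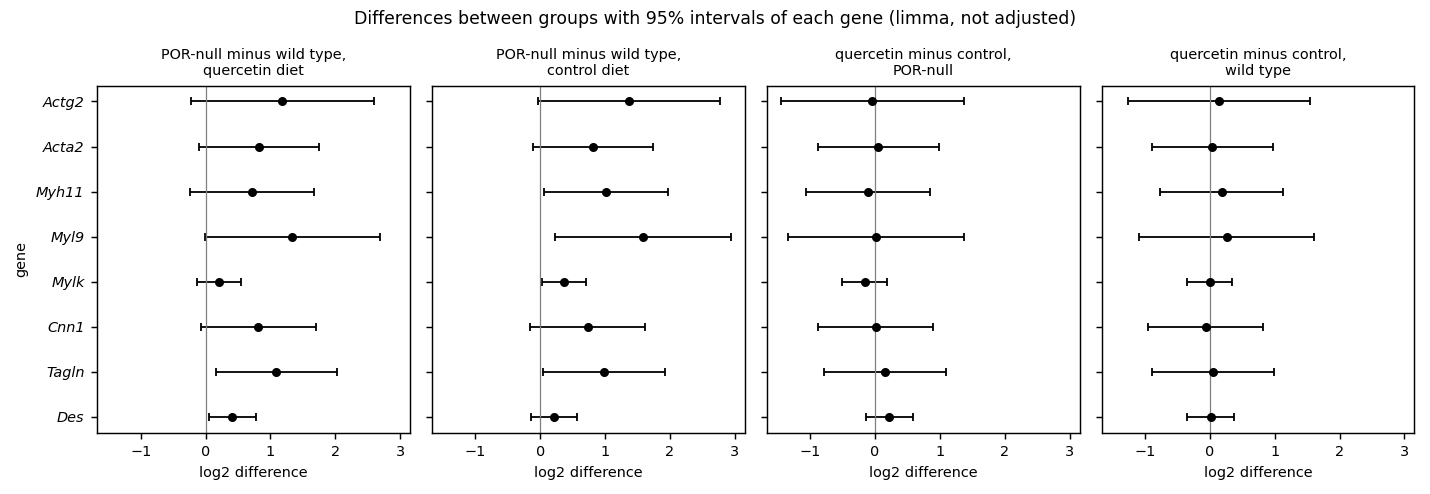
Log2 difference (x axis) of each of the 8 genes (rows) in 4 comparisons (panels), with the 95% interval of the single gene from limma, not adjusted for the number of probe sets. The genotype differences all lie above 0, most with intervals that reach 0, and the diet differences scatter around 0.

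Other probe sets of the same genes did not all show the pattern. Of the 5 probe sets that were not the highest of their gene, both of Mylk followed the score (r = 0.78 and 0.88 over the 12 arrays), with average genotype differences of 0.38 and 0.37 (limma, adjusted p = 0.380 and 0.509). The second probe sets of Acta2, Des and Myh11 had r = 0.45, 0.17 and 0.25 and average genotype differences of 0.06, 0.09 and -0.04. Acta2's second set averaged 4.60, below the lower quartile of 4.74 of the mean levels of all probe sets. The second Myh11 set averaged 5.59, and that of Des averaged 6.10, above the median of 5.93 of the mean levels. On single diets some of these sets separated the groups. The POR-null control arrays all lay above wild-type control for 1 Mylk set (0.57 ± 0.14, limma, unadjusted p = 0.00134, adjusted p = 0.292), as they did for 5.15% of all probe sets. The POR-null quercetin arrays all lay above wild-type quercetin for the second sets of Des (0.28 ± 0.10, adjusted p = 0.583) and Acta2 (0.19 ± 0.08, adjusted p = 0.706) by limma. They did so for 7.28% of all probe sets. For the second Myh11 set the POR-null quercetin arrays all lay above POR-null control (0.10 ± 0.08), as they did for 7.45% of all probe sets. The quercetin effect on the second Des set differed between genotypes by 0.39 ± 0.14 (limma, unadjusted p = 0.0122, adjusted p = 0.419). When all probe sets of each gene were averaged, the median of the average genotype difference was 0.61, against 0.84 with the highest one alone.

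Genes outside the 8 were ranked by their likeness to the score, as Pearson's r over the 12 arrays, among 10339 genes with a mean level at or above the lower quartile. Of these, 13 had an r of 0.9 or more and 0 had one of -0.9 or less. The 10 highest were Cald1 (0.98), Dmpk (0.97), Tpm2 (0.97), Rgs5 (0.97), Smtn (0.96), Flna (0.96), Pcp4 (0.95), Sparcl1 (0.94), Clmp (0.93) and Cavin2 (0.93). Caldesmon (Cald1), beta tropomyosin (Tpm2), smoothelin (Smtn) and filamin A (Flna) are actin-binding proteins of the contractile apparatus and cytoskeleton, Dmpk is a muscle protein kinase, and Cavin2 is a coat protein of caveolae. After the group means were subtracted, the 5 most alike were Smtn (0.99), Cald1 (0.98), Pcp4 (0.97), Dmpk (0.96) and Tpm2 (0.96), all among the 10 above.

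Cald1 spanned 2.36 on the log2 scale. It read 6.05, 6.52 and 5.79 on POR-null quercetin and 7.01, 4.78 and 6.36 on POR-null control, against 5.09, 6.24 and 4.81 on wild-type quercetin and 4.65, 5.28 and 5.77 on wild-type control. Rgs5, a regulator of G protein signalling found in pericytes and vascular smooth muscle, spanned 3.69, slightly more than Myl9. Its levels were 7.41, 7.52 and 7.01 on POR-null quercetin and 8.36, 5.93 and 7.48 on POR-null control, against 5.16, 7.28 and 4.77 on wild-type quercetin and 4.67, 5.55 and 6.22 on wild-type control. Its average genotype difference was 1.68 ± 0.45 (limma, unadjusted p = 0.0022, adjusted p = 0.380). The high and low arrays were those of the contractile genes.

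The wider list of smooth muscle genes moved far less as a whole. Of 43 measured, 31 were higher in POR-null on average, with a median of 0.05 against 0.00 over all probe sets, where 48.6% were higher. The adjusted test passed 0 by limma, while 8 were higher in POR-null and 0 lower at an unadjusted p under 0.05, where 3.72% of all probe sets were called higher and 3.4% lower. Besides Tpm2 (0.82 ± 0.26), the smallest p belonged to Ppp1r14a, an inhibitor of myosin phosphatase (0.26 ± 0.07), the LIM protein gene Csrp1 (0.79 ± 0.22, which had an r of 0.92 to the score) and Pdlim3 (0.39 ± 0.13), with limma adjusted p from 0.384 to 0.550. Over the 12 arrays Ppp1r14a read 3.54 to 4.17, below the lower quartile of 4.74 of the mean levels of all probe sets. Pdlim3 read 4.23 to 5.34, on both sides of it. Many genes of this list are also used by other cells, and its score ranged over the 12 arrays from -0.15 to 0.23.

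Markers of the other cell types of the wall were set beside the score. Fibroblast and matrix genes had a score between -0.20 and 0.22 and a median genotype difference of 0.10, with 18 of 20 higher in POR-null. The smallest p belonged to Fbln1, a matrix protein gene that was lower (-0.26 ± 0.15, and -0.11 without wild-type control replicate 2). Next was Lum (0.18 ± 0.10, and 0.10 without POR-null control replicate 1). Lum read 3.81 to 4.70 over the 12 arrays, below the lower quartile of 4.74 of all mean levels. By limma 0 passed the adjusted test and 0 had an unadjusted p under 0.05. Their score was between 0.05 and 0.11 in POR-null quercetin and between -0.20 and 0.22 in POR-null control, against -0.13 to 0.07 in wild-type quercetin and -0.14 to -0.01 in wild-type control. Of 17 such genes above the lower quartile, the median r to the contractile score was 0.57, against 0.01 over all genes compared. Their part in the contractile difference was not tested.

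Lists of the outer wall's nerves and pacemaker cells did not spread in the same way. Enteric neuron and glia genes had scores between -0.06 and 0.09 and 7 of 16 higher in POR-null. Tac1, which encodes substance P, was at 0.34 ± 0.15, and at 0.16 without POR-null quercetin replicate 2, whose level of 6.40 stood above the 5.35 of both other arrays of its group. The 3 measured genes of the interstitial cells of Cajal had scores between -0.07 and 0.11, and Kit was at 0.09 ± 0.07 (0.05 without POR-null quercetin replicate 2). Of 13 endothelial and pericyte genes 7 were higher and 5 lower in POR-null. Rgs5 was the highest, Cd34 was at -0.20 ± 0.08 (-0.13 without wild-type quercetin replicate 2) and Tek at -0.12 ± 0.05. Cd34 read 4.01 to 4.59 over the 12 arrays and Tek 3.57 to 3.92, below the lower quartile of 4.74 of all mean levels. The score of the 13 genes lay between -0.15 and 0.15. For the 8 of them at or above that quartile, the median r to the contractile score was -0.09. Of these, 5 had a negative r, while Rgs5 had 0.97. Genes of skeletal and cardiac muscle had scores between -0.08 and 0.08 and a median of 0.02 over 13. Of the neuron and glia genes, 10 of 16 had a mean level at or above the lower quartile of all probe sets. So did 8 of 13 endothelial and pericyte genes and 6 of 13 of skeletal and cardiac muscle. The remaining, dimmer genes also entered these scores. None of these 4 lists had a gene past limma's adjusted test. At an unadjusted p under 0.05 Tac1 and Rgs5 were higher and Cd34, Tek and Acta1 lower in POR-null, out of 45 genes, against 3.72% of all probe sets higher and 3.4% lower.

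Among the lists, the averaged score of the epithelial genes varied least, while single genes could move more. Elf3, for example, ran from 9.21 to 10.23 over the 12 arrays. The score of the 16 epithelial genes ranged from -0.06 to 0.04, against -0.91 to 1.18 for the contractile genes, and 7 were higher and 9 lower in POR-null. Krt20, a keratin of mature enterocytes, was at 12.82 ± 0.12 on POR-null quercetin and 12.89 ± 0.08 on POR-null control, against 12.94 ± 0.08 on wild-type quercetin and 13.06 ± 0.13 on wild-type control (SD, n = 3). Actins and myosins of non-muscle cells had scores from -0.11 to 0.06, with 5 of 13 higher in POR-null and Actg1 at -0.15 ± 0.06. In both lists 0 genes passed limma's adjusted test. At an unadjusted p under 0.05 Elf3, Krt20 and Actg1 were lower in POR-null and 0 genes higher, out of 29, against 3.4% of all probe sets lower and 3.72% higher.

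**Figure D5:**
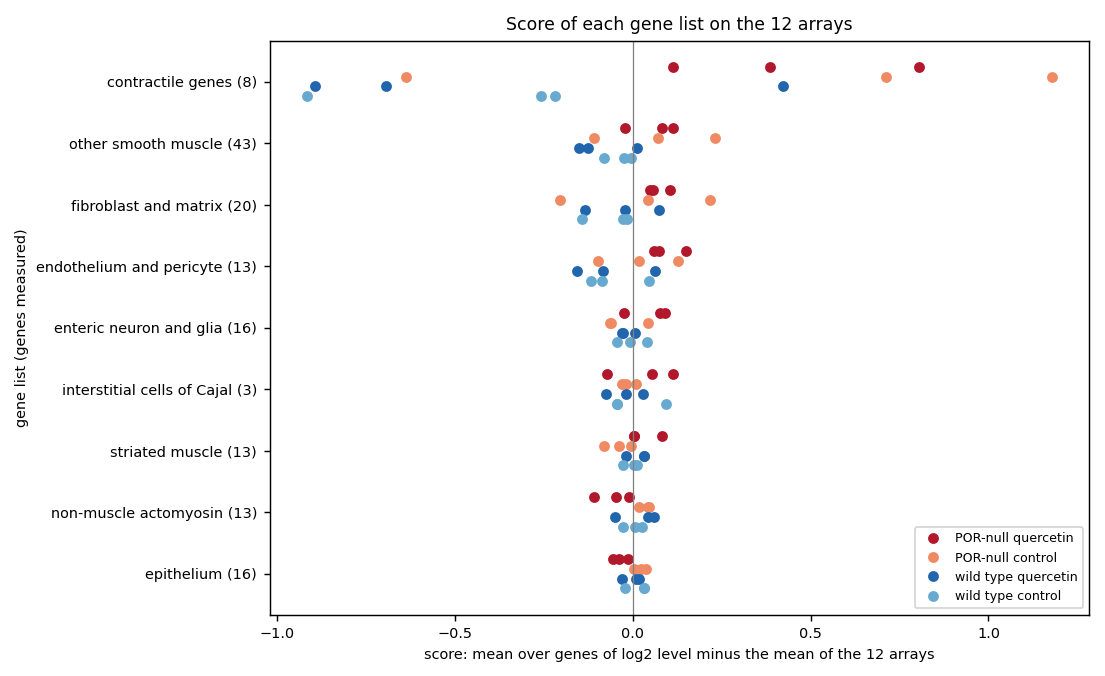
Score of 9 gene lists (rows, with the number of genes measured) on each of the 12 arrays, as the mean over genes of the log2 level minus the mean of the 12 arrays (x axis), coloured by group. The score of the contractile genes runs from -0.91 to 1.18 while that of the epithelial genes stays between -0.06 and 0.04.

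Array medians lay between 5.91 and 5.96. On the first principal component of all probe sets, which held 19.7% of the variance, wild-type control replicate 2 lay apart at -25.6, with the others from -10.8 to 10.6. Its contractile score of -0.22 was in the middle of the 12, and without it the median of the average genotype difference was 0.92.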

How the data were processed

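RNA from pools of 3 mice was hybridised to Affymetrix 430A arrays. Log2 levels of each probe set are the authors' processed values, taken as deposited; the base of the logarithm is read from their range, 2.66 to 14.04. Per the submitters' processing notes, MAS5 and RMA were used, with no role or version given. Array controls (64 of 22690 probe sets) were not tested. By the platform annotation, 20380 of the rest carried 1 symbol, 691 several and 1555 none; 20351 of the 20380 were matched by gene ID to RefSeq (GRCm38.p6).

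Limma 3.58.1 (R 4.3.3; lmFit, eBayes) estimated the 4 group means over 12 arrays together, with 8 residual and 5.59 prior degrees of freedom. P-values were adjusted over 22626 probe sets by Benjamini-Hochberg, at a threshold of 0.05. The script was tested on simulated data. The number of arrays limits the precision.

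All 8 contractile genes are named, with up to 4 genes of each other list by smallest p for the average genotype difference, and the 10 most, 5 least and 5 most alike within groups to the score; predicted genes were not named. The genes and lists were chosen with earlier results of these data known. Figures used Python 3.11.15 and matplotlib 3.10.9. Alternatives were quantile normalization, median centring, filters on dim probe sets, trended and robust eBayes, weighted arrays, a replicate block, fits of the compared groups alone, averaged probe sets, other scores and leaving out each array.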

Additional observations from a re-analysis of the deposited data

How the results depend on the processing

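The genotype differences kept their direction for all 8 genes on each diet and on average, under every setting listed in the processing that could include them. The median of the average genotype difference lay between 0.61 and 1.09, and no gene passed in any comparison or setting (lowest adjusted p 0.158, without POR-null control replicate 2). The filter at the median level left out Actg2. Averaging all probe sets of a gene drew the scores in, to between -0.60 and 0.81, against -0.91 and 1.18, while with the other scores no array moved by more than 0.081. At an unadjusted p under 0.05, 1 gene of 8 was called on the control diet with trended and robust eBayes, array weights or the replicate block, against 4, and on quercetin 6 with the compared groups alone, 3 with array weights and 1 with trended and robust eBayes, against 2. Leaving out arrays for the genes named from other lists was chosen after seeing the data; it changed the direction of Gja1 (-0.060 to 0.0025) and Ano1 (-0.027 to 0.023) only. Whether the replicate numbers pair the arrays is not known. Of 18 same-numbered pairs, 3 had deviations correlated over 0.1 (range -0.18 to 0.16). Their median r was 0.016, against 0.0014 for differently numbered pairs. Because the mean of each group of 3 arrays was subtracted first, these correlations cannot exclude a pairing. With the replicate block, 0 genes passed, the lowest adjusted p for the average genotype difference was 0.510 and its median stayed at 0.84. Over all probe sets, 1 passed for quercetin in wild type, against 5 with the block, 7 with trended and robust eBayes and 59 without wild-type control replicate 1, which also gave 15 for POR-null against wild type on the control diet, where 0 passed with all arrays.

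Quercetin differences near 0 changed sign under some settings, and the cause was not tested. With arrays centred on their medians, Myl9 and Cnn1 in POR-null were at -0.0033 and -0.010, Mylk in wild type at 0.017 and the interaction of Acta2 at -0.027. Array weights gave 0.026 for Actg2 in POR-null, -0.0588, -0.0402 and -0.0205 for Tagln, Acta2 and Des in wild type, and 0.014 for the interaction of Actg2. The mean of all probe sets gave 0.041, -0.043 and -0.090 for Mylk, Acta2 and Des in wild type.

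Leaving out 1 array at a time, the quercetin difference in POR-null ran from -0.78 to 0.61 for Myl9, from -0.63 to 0.34 for Myh11, from -0.39 to 0.51 for Tagln, from -0.94 to 0.56 for Actg2, from -0.46 to 0.43 for Acta2, from -0.55 to 0.47 for Cnn1. In wild type it ran from -0.36 to 0.64 for Myl9, from -0.29 to 0.46 for Myh11, from -0.40 to 0.38 for Tagln, from -0.10 to 0.12 for Mylk, from -0.49 to 0.52 for Actg2, from -0.43 to 0.35 for Acta2, from -0.14 to 0.16 for Des, from -0.43 to 0.14 for Cnn1. Averaged over the genotypes it ran from -0.26 to 0.43 for Myl9, from -0.23 to 0.26 for Myh11, from -0.17 to 0.28 for Tagln, from -0.40 to 0.35 for Actg2, from -0.21 to 0.23 for Acta2, from -0.31 to 0.20 for Cnn1. The interaction ran from -1.04 to 0.38 for Myl9, from -0.81 to 0.17 for Myh11, from -0.44 to 0.55 for Tagln, from -1.07 to 0.45 for Actg2, from -0.49 to 0.48 for Acta2, from -0.48 to 0.53 for Cnn1.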

Other observations

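The genes least like the contractile score had r = -0.88 (Capns1, the small subunit of calpain), -0.85 (Dgcr8, a partner of Drosha in miRNA processing), -0.83 (Rnf41 and Abat) and -0.82 (Cd47) over the 12 arrays. They moved over narrow ranges: Capns1 spanned 0.25, Dgcr8 0.29, Rnf41 0.34, Cd47 0.35 and Abat 0.60 on the log2 scale. Of the 10339 genes compared, 8 had an r of -0.8 or less and 18 one of 0.8 or more.

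Acta1, the actin of skeletal muscle, differed in the other direction from the smooth muscle actins. It read 6.75, 7.12 and 7.26 on POR-null quercetin and 7.07, 7.10 and 6.91 on POR-null control, against 7.69, 7.82 and 7.39 on wild-type quercetin and 7.52, 7.27 and 7.00 on wild-type control. The average genotype difference was -0.41 ± 0.11 (limma, unadjusted p = 0.00168, adjusted p = 0.363), and r to the contractile score was -0.42.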
